A study of Mus musculus with 9 samples.

Results

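The genes described here are 35 genes of protein folding in the endoplasmic reticulum and of the unfolded protein response, measured in mouse pancreatic stellate cells. They were chosen by name, as a list of known chaperones, disulfide and proline enzymes, degradation factors and stress sensors. Earlier results of these data were known at that choice, so their shares beside those of all genes are a description. The count table holds 49315 gene identifiers, of which 18211 passed the filter on low counts and were tested. All 35 genes were found in it and all 35 passed that filter. Chaperones and lectins make up 12 of them, disulfide and proline enzymes with the collagen chaperone 12, degradation factors 7, and stress sensors with their transcription factors 4.

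Proteins that leave a cell or sit in its membranes are folded in the endoplasmic reticulum, where chaperones hold them, oxidases and disulfide isomerases join their cysteines, and lectins check their sugars. When unfolded protein builds up, the sensors IRE1, PERK and ATF6 raise the transcription of these helpers, slow translation and send failed proteins out for degradation. Stellate cells are the collagen-making cells of the pancreas, and procollagen is among the most demanding clients of this machinery. The oxidase gene Ero1l is also known as a target of hypoxia-inducible factor.

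All groups are cultures of stellate cells of the C57BL6 strain that grew out as an immortal line without an added oncogene, and all received Cas9 and a guide RNA by lentivirus, followed by selection in puromycin. They were used as a polyclonal population, so each group mixes edited and possibly unedited cells. HIF1a-ko hypoxia cells carried HIF1a sg2, a guide against Hif1a, the oxygen-regulated subunit of HIF-1, and were kept at 0.5% oxygen for 48 h. R26 hypoxia cells carried R26 sg1, a control guide, and were kept at 0.5% oxygen for 48 h. R26 normoxia cells carried the same control guide and were kept at 20% oxygen for 48 h. Each group had 3 libraries of poly-A RNA, numbered 1 to 3. Cells with the Hif1a guide at 20% oxygen were not analysed here, so in the comparison of HIF1a-ko hypoxia with R26 normoxia the effects of guide and oxygen cannot be told apart. The labels do not state that the libraries of a group were separate cultures, and the p-values then measure only the spread between these libraries, which may be technical.

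Library totals ran from 43837809 to 107840223 counts. The libraries HIF1a-ko hypoxia 1, R26 hypoxia 3 and R26 normoxia 3 held at least 88451200 counts each and stood apart from the other 6, a split by depth that lies across the groups. Levels are counts scaled to a common library size with the TMM factors (CPM). Hif1a itself stood at 123, 117 and 125 CPM in HIF1a-ko hypoxia, at 178, 169 and 207 CPM in R26 hypoxia, and at 194, 192 and 225 CPM in R26 normoxia. All 3 HIF1a-ko libraries lay below the other 6, and the log2 fold change to R26 hypoxia was -0.60 with a standard error (SE) of 0.09 (edgeR adjusted p = 0.000358); errors of log2 fold changes are SE throughout. Small insertions and deletions need not lower an RNA, and protein was not measured. All 12 stellate and fibroblast markers were counted, with a summed level of 13481 to 13944 CPM in HIF1a-ko hypoxia, 19781 to 21323 CPM in R26 hypoxia and 17546 to 19256 CPM in R26 normoxia. Of these 12, 1 rose and 5 fell in HIF1a-ko hypoxia against R26 hypoxia (edgeR adjusted p under 0.05). In that comparison 22% of all genes tested rose and 23.8% fell. Only 3 of 11 acinar and islet markers passed the filter, and Amy2a5, Ins1 and Ins2 were at 0 in all 9 libraries. In bulk RNA, fewer cells of a kind and less RNA per cell cannot be told apart.

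The endoplasmic reticulum genes stood highest in the cells that combined the Hif1a guide with low oxygen. Together they took 0.868%, 0.894% and 0.891% of all counts in HIF1a-ko hypoxia 1 to 3, against 0.648%, 0.631% and 0.660% in R26 hypoxia and 0.613%, 0.610% and 0.620% in R26 normoxia. The 3 groups did not overlap in this share, and the step between the R26 groups was small beside the one to the Hif1a guide. Hspa5 made up 18.4% of the summed CPM difference between HIF1a-ko hypoxia and R26 hypoxia, Canx 16.2%, Hsp90b1 15.6% and Serpinh1 12.9%. In 23 of the 35 genes all 3 HIF1a-ko libraries lay above all 6 R26 libraries, against 18.1% of all genes tested, and in Dnajb9, Xbp1 and Eif2ak3 they lay below all 6, against 19%.

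Against R26 hypoxia, 20 of the 35 genes rose with the Hif1a guide and 2 fell, at an adjusted p under 0.05 in edgeR's quasi-likelihood test. Of all genes tested 22% rose and 23.8% fell in the same comparison. The median log2 fold change was 0.33 over the 35 genes and -0.02 over all genes. Groups lay apart without overlap in 23 genes upward and 3 downward, against 26.4% and 28.1% of all genes.

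Against R26 normoxia, 27 rose and 3 fell in HIF1a-ko hypoxia, where 19.5% and 21.9% of all genes did. The median was 0.41 over the 35 genes and -0.01 over all genes. Without overlap, 29 genes lay higher and 4 lower, against 25.5% and 27.8% of all genes.

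Low oxygen with the control guide moved fewer of them. In R26 hypoxia against R26 normoxia 7 rose and 1 fell, where 12.8% of all genes rose and 12.4% fell, and the median was 0.03 over the 35 genes and -0.01 over all. Groups lay apart in 10 genes upward and 1 downward, against 19.3% and 19.1% of all genes. Deviations of same-numbered libraries of these groups correlated at 0.55, 0.54 and 0.86 across genes. Libraries 1 and 2 also correlated across numbers, at 0.56 and 0.39. Number 3 is the deeper library of both groups, so number and depth cannot be told apart here. A fit with the replicate number as a block called 16 of the 35, 13 higher and 3 lower, among them all 8 called without it. With the block 22.1% of all genes were called higher and 19.6% lower. A fit with a term for deeper and shallower libraries called 13, 10 higher and 3 lower, against 18.7% and 19.5% of all genes. The changes won by the block were small, as in Edem1 (log2 fold change 0.18, adjusted p = 0.00270), Dnajc3 (0.19, adjusted p = 0.00453) and Dnajb9 (0.19, adjusted p = 0.0108).

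**Figure D1:**
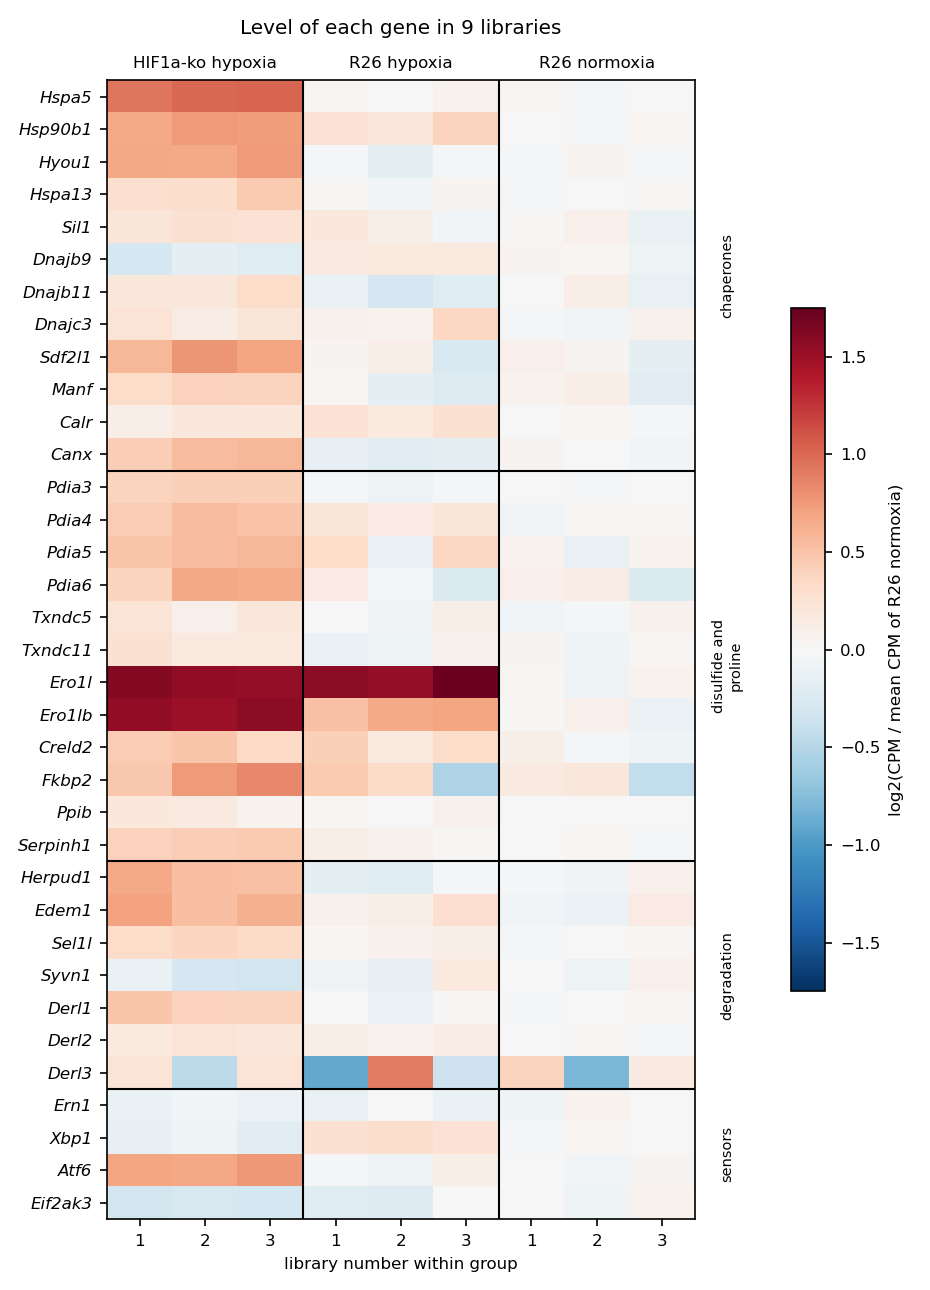
Each row is a gene, each column a library, and the colour is the log2 ratio of its CPM to the mean of R26 normoxia (red higher, blue lower). HIF1a-ko hypoxia libraries are red in most rows, Ero1l is red in all 6 hypoxic libraries, and Derl3, which scatters, rests on counts between 9 and 41.

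Among the chaperones, Hspa5 changed most with the Hif1a guide. Hspa5 (ENSMUSG00000026864, chromosome 2, 34771970 to 34777547, plus strand of GRCm38 in GENCODE M21) encodes BiP, the main HSP70 of the endoplasmic reticulum, which also holds the stress sensors inactive. It was counted at 748, 782 and 787 CPM in HIF1a-ko hypoxia, against 399, 389 and 409 CPM in R26 hypoxia and 397, 384 and 389 CPM in R26 normoxia. The R26 groups overlapped, and the HIF1a-ko libraries lay far above both. Hspa5 was 1.94-fold higher than in R26 hypoxia (log2 fold change 0.95 ± 0.04, edgeR adjusted p = 2.47e-07), whereas R26 hypoxia and R26 normoxia differed by 0.03 ± 0.04 (adjusted p = 0.671).

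Several factors that work with BiP rose too. Hyou1, a large HSP70 relative that exchanges the nucleotide of BiP, had 173, 172 and 181 CPM in HIF1a-ko hypoxia, against 106, 97.3 and 108 CPM in R26 hypoxia and 107, 112 and 107 CPM in R26 normoxia. Its log2 fold change with the Hif1a guide was 0.76 ± 0.05 in hypoxia (adjusted p = 2.04e-06), and the R26 groups overlapped. Sdf2l1, a partner of the BiP cochaperone cycle, rose by 0.70 ± 0.11, with means of 15.1 CPM in HIF1a-ko hypoxia and 9.26 CPM in R26 hypoxia. Manf, a secreted and resident BiP cofactor, rose by 0.49 ± 0.09, the cochaperone Dnajb11 by 0.45 ± 0.07 and the HSP70 relative Hspa13 by 0.34 ± 0.05. None of Hyou1, Sdf2l1, Manf, Dnajb11 and Hspa13 passed the test between R26 hypoxia and R26 normoxia, although Dnajb11 was called lower in 5 of 16 alternatives. Its adjusted p was 0.0374 without R26 normoxia 3, 0.0440 with the replicate block, 0.0221 with the depth term, 0.0234 in the shallower libraries alone and 0.0486 in the DESeq2 Wald test. Sil1, the other nucleotide exchange factor of BiP, was not called against R26 hypoxia (0.16 ± 0.07, adjusted p = 0.0969) although its groups did not overlap. It passed without R26 hypoxia 1 (adjusted p = 0.04996) and with the depth term (0.0135).

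The cochaperones of the DnaJ family split. Dnajb9, which encodes ERdj4 and is a known target of spliced XBP1, went the other way from Dnajb11. It stood at 24.7, 27.1 and 26.3 CPM in HIF1a-ko hypoxia, against 34.1, 34.2 and 34.2 CPM in R26 hypoxia and 31.4, 31.2 and 28.7 CPM in R26 normoxia. The 3 groups did not overlap, with R26 hypoxia highest and HIF1a-ko hypoxia lowest. Dnajb9 fell against R26 hypoxia (log2 fold change -0.39 ± 0.06, adjusted p = 0.000341) and against R26 normoxia (-0.23 ± 0.06, adjusted p = 0.00981), the last with its adjusted p at 0.0569 without HIF1a-ko hypoxia 1. Between the R26 groups Dnajb9 was not called (0.17 ± 0.06, adjusted p = 0.0575, and 0.0408 without HIF1a-ko hypoxia 1). Dnajc3, the PERK inhibitor p58IPK, differed from R26 hypoxia by 0.02 ± 0.08 (adjusted p = 0.902).

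Hsp90b1, the HSP90 of the compartment known as GRP94, rose at each step. Its level was 1184, 1244 and 1230.3 CPM in HIF1a-ko hypoxia, against 889.7, 847 and 973 CPM in R26 hypoxia and 739, 729.6 and 764 CPM in R26 normoxia. No libraries of different groups overlapped. It was 1.35-fold higher with the Hif1a guide in hypoxia (log2 fold change 0.43 ± 0.06, adjusted p = 0.000191) and 1.21-fold higher in R26 hypoxia than in R26 normoxia (0.28 ± 0.06, adjusted p = 0.00636). Of its 50-base stretches, 9.75% also occur in other genes, so part of its reads could be shared.

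The lectin chaperones calreticulin and calnexin bind the same sugar on newly made glycoproteins, but they did not move together. Calr, the soluble lectin, had 591, 619.6 and 618 CPM in HIF1a-ko hypoxia, against 653, 614 and 659.7 CPM in R26 hypoxia and 542, 561 and 536 CPM in R26 normoxia. It rose in R26 hypoxia against normoxia (log2 fold change 0.23 ± 0.05, adjusted p = 0.00584), and HIF1a-ko hypoxia overlapped R26 hypoxia (-0.08 ± 0.05, adjusted p = 0.227). Canx, the membrane-bound lectin, had 808, 885 and 897 CPM in HIF1a-ko hypoxia, against 543, 529.8 and 531 CPM in R26 hypoxia and 618, 599 and 582 CPM in R26 normoxia. Its R26 hypoxia libraries were the lowest of the 9. Canx was 1.61-fold higher with the Hif1a guide in hypoxia (0.69 ± 0.05, adjusted p = 4.96e-06). It fell in R26 hypoxia against normoxia (-0.17 ± 0.05, adjusted p = 0.0409), a call that was lost in 10 of 16 alternative fits, among them those without any of the 6 R26 libraries in turn, with adjusted p-values up to 0.198.

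**Figure D2:**
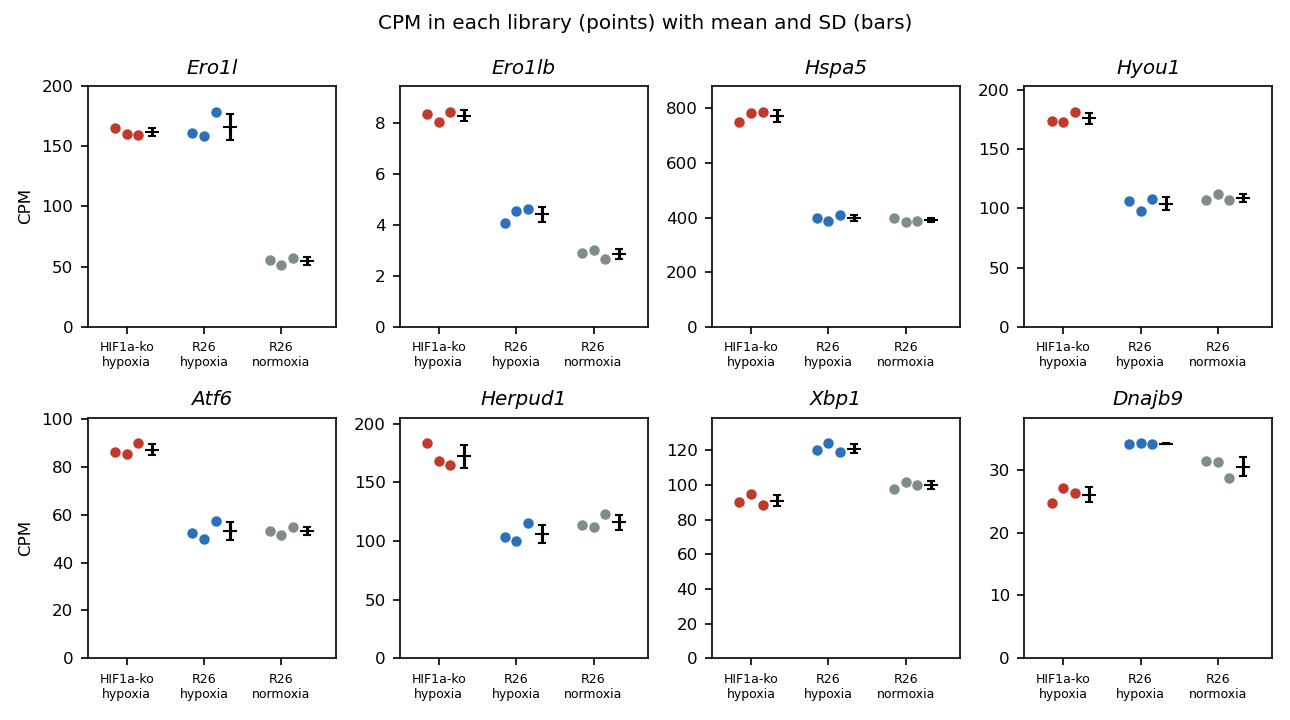
CPM of 8 genes in each library (points), with the mean and SD of the 3 libraries of a group as a bar beside them; the vertical axes start at 0. Ero1l is alike in the hypoxic groups, Ero1lb rises in steps, Hspa5, Hyou1, Atf6 and Herpud1 are higher in HIF1a-ko hypoxia than in both R26 groups, and Xbp1 and Dnajb9 are highest in R26 hypoxia.

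The ERO1 oxidases, which pass electrons from disulfide isomerases to oxygen, gave the largest responses of the 35 genes to low oxygen in R26 cells and differed from each other. Ero1l (ENSMUSG00000021831, chromosome 14, 45283087 to 45318771, minus strand), the widely expressed form now also named Ero1a, was at 166, 160.1 and 159 CPM in HIF1a-ko hypoxia, against 161, 158 and 179 CPM in R26 hypoxia and 55.5, 51.2 and 57.1 CPM in R26 normoxia. The hypoxic groups overlapped and both lay far above normoxia. It was 3.04-fold higher in R26 hypoxia than in R26 normoxia (log2 fold change 1.60 ± 0.06, adjusted p = 4.16e-07) and 2.96-fold higher in HIF1a-ko hypoxia than in R26 normoxia (1.57 ± 0.06, adjusted p = 2.47e-07). Between the hypoxic groups it differed by -0.04 ± 0.06 (adjusted p = 0.635), and over the 16 alternatives this value ran from -0.07 to 0.01. The R26 hypoxia change in Ero1l exceeded that of 99.04% of all genes tested.

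Ero1lb (ENSMUSG00000057069, chromosome 13, 12565874 to 12611396, plus strand), also named Ero1b and known for insulin-making cells, was much scarcer and answered in steps. It had 8.35, 8.03 and 8.43 CPM in HIF1a-ko hypoxia, against 4.07, 4.54 and 4.61 CPM in R26 hypoxia and 2.89, 3.02 and 2.65 CPM in R26 normoxia. No groups overlapped. It rose by 0.63 ± 0.10 in R26 hypoxia against normoxia (adjusted p = 0.00167) and by a further 0.91 ± 0.10 with the Hif1a guide (adjusted p = 5.38e-05). Per kilobase of exon its level in HIF1a-ko hypoxia was 1.24 CPM, against 30.6 CPM per kilobase for Ero1l. The pseudogene Gm18562 shares 8.85% of the 50-base stretches of Ero1lb.

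Of the protein disulfide isomerases and their relatives, Pdia6, which reduces the disulfides of IRE1 and PERK, changed most with the Hif1a guide. It had 319, 388 and 381 CPM in HIF1a-ko hypoxia, against 268, 238 and 205 CPM in R26 hypoxia and 257, 265 and 206 CPM in R26 normoxia. Its deeper library was the lowest in each group, and the hypoxic groups still lay apart (log2 fold change 0.61 ± 0.13, adjusted p = 0.00313). Pdia3, the partner of calnexin and calreticulin, had 741, 753 and 758 CPM in HIF1a-ko hypoxia, against 560.5, 532 and 559 CPM in R26 hypoxia and 570.4, 560.4 and 567 CPM in R26 normoxia. It rose by 0.45 ± 0.04 with the guide (adjusted p = 1.81e-05) and was not called between the R26 groups. Pdia4, a multidomain isomerase, rose with the guide (0.31 ± 0.04, adjusted p = 0.000332). It also rose with low oxygen in R26 cells (0.19 ± 0.04, adjusted p = 0.0141, and 0.0630 without R26 normoxia 1).

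Other relatives were less uniform. Txndc11, which works in degradation of glycoproteins, rose by 0.25 ± 0.07 with the guide in hypoxia (adjusted p = 0.0124). Pdia5, which acts on the disulfides of ATF6, rose by 0.33 ± 0.12 (adjusted p = 0.0444), a call lost in 8 of 16 alternatives, among them those without R26 normoxia 1 or 2, R26 hypoxia 2 or any of the HIF1a-ko libraries, with adjusted p-values up to 0.103. Txndc5, an isomerase known for procollagen folding in fibroblasts, was not called against R26 hypoxia (0.16 ± 0.06, adjusted p = 0.0609). It passed without R26 normoxia 3, R26 hypoxia 3 or HIF1a-ko hypoxia 2 (adjusted p of 0.0418, 0.0329 and 0.0376). Its adjusted p was 0.00460 with the depth term, 0.0146 in the shallower libraries alone and 0.0237 in the DESeq2 Wald test. Creld2, a stress-induced isomerase, had 26.2, 26.8 and 24.6 CPM in HIF1a-ko hypoxia, against 25.7, 21.7 and 23.9 CPM in R26 hypoxia and 20.6, 18.9 and 18.2 CPM in R26 normoxia. It rose in R26 hypoxia against normoxia (0.31 ± 0.08, adjusted p = 0.0180), with adjusted p-values of 0.0515 to 0.0630 without R26 hypoxia 1, R26 normoxia 2 or R26 normoxia 3, and the hypoxic groups overlapped.

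Serpinh1 encodes HSP47, the chaperone of procollagen, and had the highest level of the 35 genes per kilobase of exon, at 478 CPM in HIF1a-ko hypoxia, 370.4 CPM in R26 hypoxia and 354 CPM in R26 normoxia. Its libraries stood at 1148, 1163 and 1191 CPM in HIF1a-ko hypoxia, against 932, 906 and 877 CPM in R26 hypoxia and 856, 886 and 850.2 CPM in R26 normoxia. HIF1a-ko hypoxia lay above the rest (log2 fold change against R26 hypoxia 0.37 ± 0.04, adjusted p = 9.22e-05), and the R26 groups overlapped. Serpinh1 thus rose where the summed stellate and fibroblast markers were lowest. Within that sum, Col1a1 and Col1a2 had means of 3772 and 3517 CPM in HIF1a-ko hypoxia, against 6105 and 6637 CPM in R26 hypoxia. Not all markers followed, as Acta2 had means of 1143 CPM in HIF1a-ko hypoxia, 787 CPM in R26 hypoxia and 1520 CPM in R26 normoxia. The proline isomerase Ppib, or cyclophilin B, was not called with the guide in hypoxia (0.10 ± 0.04, adjusted p = 0.0875). It passed without HIF1a-ko hypoxia 3 (adjusted p = 0.0223), with the depth term (0.0427) and in the DESeq2 Wald test (0.0351). Of its 50-base stretches 30.8% occur in other genes, largely in Snx22 on the opposite strand. Fkbp2, another proline isomerase, differed by 0.55 ± 0.25 with the guide (adjusted p = 0.106). Its R26 libraries split by depth, with 19.6 CPM in the deeper library of R26 hypoxia against 39.0 and 35.9 CPM in the others, and a fit with a depth term called it at 0.61 (adjusted p = 0.000118).

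**Figure D3:**
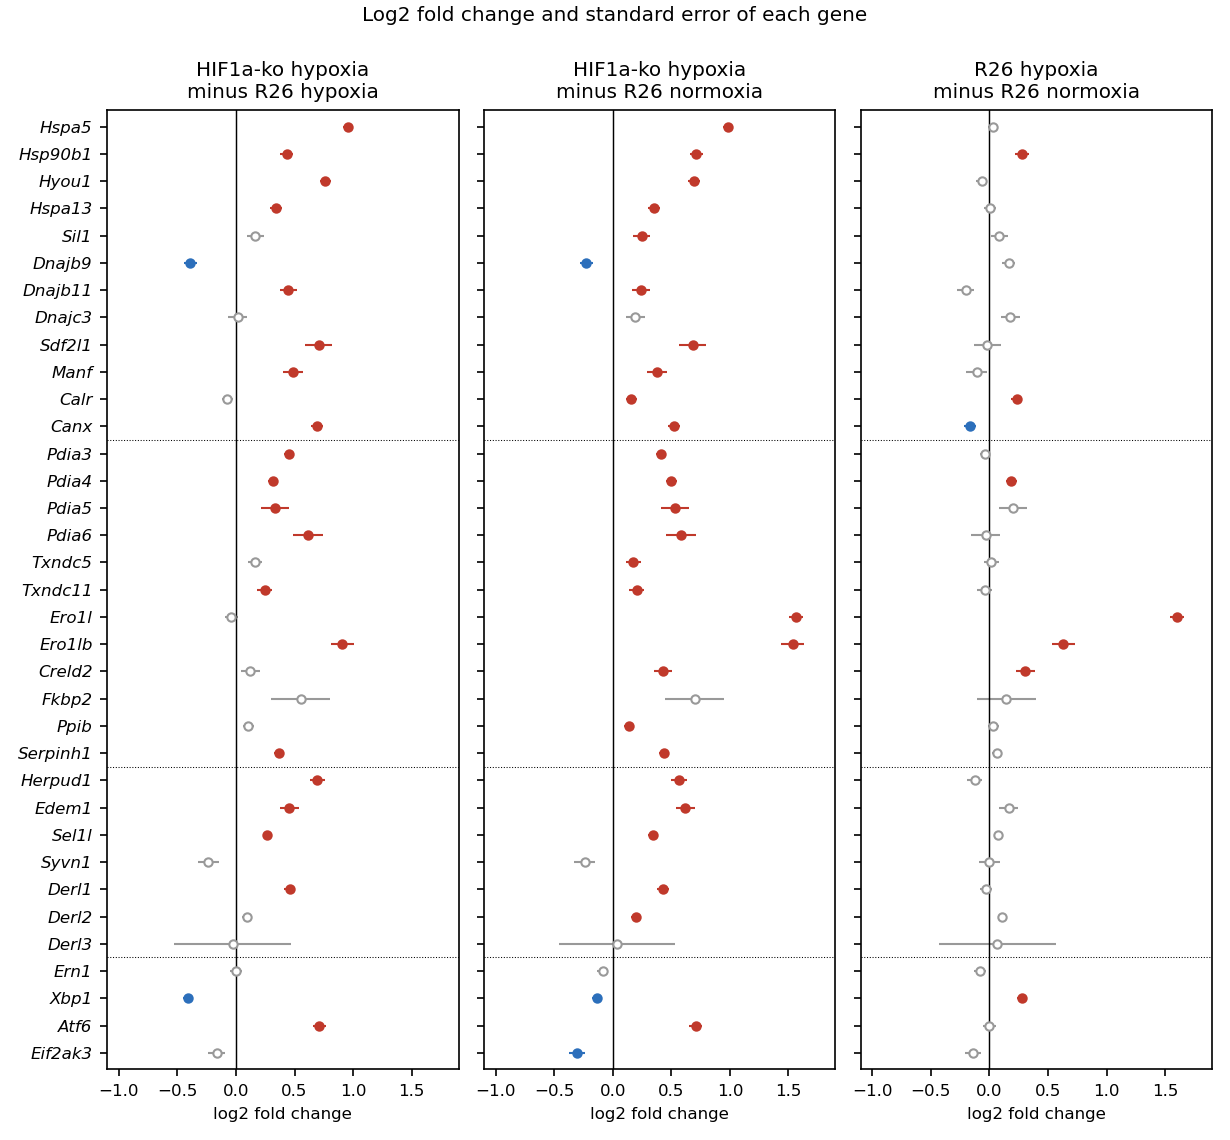
Log2 fold change (points) and standard error (bars) of each gene in 3 comparisons, ordered by role, with filled points for genes past an adjusted p of 0.05 (red higher, blue lower) and open points for the rest. Most chaperones and isomerases lie right of 0 in the HIF1a-ko panels, whereas in the R26 panel only Ero1l, at 1.60, and Ero1lb, at 0.63, lie far from it.

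Of 7 degradation factors 4 rose with the Hif1a guide in hypoxia and none fell, against 22% and 23.8% of all genes. None of the 7 was called between the R26 groups, 1 at an unadjusted p under 0.05. Of all genes 12.8% rose and 12.4% fell there. With the replicate block, 4 of them were called between the R26 groups, Edem1 (adjusted p = 0.00270), Derl2 (0.0327) and Sel1l (0.0454) higher and Herpud1 (0.0272) lower. Herpud1, which organises the degradation complex in the membrane, had 183, 168 and 165 CPM in HIF1a-ko hypoxia, against 104, 100.1 and 115 CPM in R26 hypoxia and 113, 112 and 123 CPM in R26 normoxia. It was 1.62-fold higher than in R26 hypoxia (log2 fold change 0.70 ± 0.07, adjusted p = 2.79e-05), with no overlap. Edem1, which marks misfolded glycoproteins by trimming mannose, had 190.5, 169.7 and 181 CPM in HIF1a-ko hypoxia, against 124, 126 and 145 CPM in R26 hypoxia and 114, 109 and 129 CPM in R26 normoxia. It rose by 0.45 ± 0.08 against R26 hypoxia (adjusted p = 0.00137). Derl1, a channel component, rose by 0.46 ± 0.05 and Sel1l, the scaffold of the ubiquitin ligase complex, by 0.27 ± 0.04. Syvn1, the ligase HRD1 that pairs with Sel1l, did not follow it and stood at 70.5, 62.5 and 61.1 CPM in HIF1a-ko hypoxia, against 73.3, 69.3 and 86.1 CPM in R26 hypoxia (-0.24 ± 0.09, adjusted p = 0.0573, and 0.0301 and 0.0334 without R26 hypoxia 2 or HIF1a-ko hypoxia 1). Syvn1 was called lower with the depth term (adjusted p = 0.000522) and in the shallower libraries alone (0.00874). Derl2 differed by 0.09 ± 0.04 (adjusted p = 0.0915, and 0.0478 with DESeq2 size factors). Derl3, a form typical of secretory cells, had 0.18 to 0.19 CPM per kilobase in the 3 groups and cannot be judged at this depth.

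The sensors did not share a direction. Atf6 (ENSMUSG00000026663, chromosome 1, 170704674 to 170867771, minus strand), the membrane-bound transcription factor, had 86.4, 85.3 and 89.8 CPM in HIF1a-ko hypoxia, against 52.5, 49.9 and 57.2 CPM in R26 hypoxia and 53.3, 51.6 and 55.0 CPM in R26 normoxia. The R26 groups overlapped, and Atf6 was 1.64-fold higher with the Hif1a guide in hypoxia (log2 fold change 0.71 ± 0.06, adjusted p = 7.02e-06). Ern1, which encodes IRE1, was not called in any comparison, with a difference of 0.00 ± 0.05 against R26 hypoxia (adjusted p = 0.962). Eif2ak3, which encodes PERK, had 32.9, 33.8 and 33.2 CPM in HIF1a-ko hypoxia, against 35.5, 35.1 and 41.3 CPM in R26 hypoxia and 41.3, 38.9 and 43.1 CPM in R26 normoxia. It fell against R26 normoxia (-0.31 ± 0.07, adjusted p = 0.00655) but was not called against R26 hypoxia (-0.17 ± 0.07, adjusted p = 0.0824, and 0.0254 with the depth term). R26 hypoxia and R26 normoxia differed by -0.14 ± 0.07 (adjusted p = 0.192, and 0.0251 without R26 hypoxia 3).

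Xbp1 (ENSMUSG00000020484, chromosome 11, 5520659 to 5525893, plus strand), the transcription factor that IRE1 activates by splicing, was highest in control cells at low oxygen. It stood at 90.1, 94.5 and 88.1 CPM in HIF1a-ko hypoxia, against 119.8, 124 and 119 CPM in R26 hypoxia and 97.5, 102 and 100.2 CPM in R26 normoxia. No groups overlapped. It rose in R26 hypoxia against normoxia (log2 fold change 0.28 ± 0.04, adjusted p = 0.00133) and fell with the Hif1a guide in hypoxia (-0.41 ± 0.04, adjusted p = 3.55e-05). The small difference between HIF1a-ko hypoxia and R26 normoxia (-0.14 ± 0.04, adjusted p = 0.0262) was lost in 7 of 16 alternatives, among them those without R26 normoxia 2 or 3 or HIF1a-ko hypoxia 1 or 3, with adjusted p-values up to 0.199. Counts per gene do not separate spliced from unspliced Xbp1.

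Sorted by these calls, the genes fell into classes. Hsp90b1, Calr, Pdia4, Ero1l, Ero1lb and Creld2 were higher in both hypoxic groups than in R26 normoxia, 6 of 35 genes, where 4.62% of all genes tested met the same rule. With the replicate block this class held 10 of the 35, against 6.06% of all genes. Dnajc3, Pdia5, Edem1, Sel1l and Derl2 joined it and Calr left. The block also entered the comparisons with HIF1a-ko hypoxia, where same-number correlations ran down to -0.62. Class counts with the block thus rest in part on numbers that do not pair the libraries. Both comparisons with R26 normoxia share its libraries. Hsp90b1, Pdia4 and Ero1lb rose again with the Hif1a guide, whereas Calr, Ero1l and Creld2 were not called between the hypoxic groups, with log2 differences of -0.08, -0.04 and 0.12. The call of Calr in HIF1a-ko hypoxia against R26 normoxia (0.16 ± 0.05, adjusted p = 0.0219) was lost without R26 normoxia 1 (adjusted p = 0.0735) or HIF1a-ko hypoxia 2 (0.0721).

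The larger class was called higher with the Hif1a guide and not called higher in control cells at low oxygen. It holds 17 genes that were higher in HIF1a-ko hypoxia than in both R26 groups and were not called higher in R26 hypoxia against normoxia, a pattern met by 12.6% of all genes tested. With the replicate block, whose numbers do not pair the HIF1a-ko libraries with the others, it held 12, against 9.81% of all genes. They are Hspa5, Hyou1, Hspa13, Dnajb11, Sdf2l1, Manf and Canx among the chaperones, Pdia3, Pdia5, Pdia6, Txndc11 and Serpinh1 among the folding enzymes and their partners, Herpud1, Edem1, Sel1l and Derl1 among the degradation factors, and the sensor Atf6. The place of Dnajb11 rests on its difference from R26 normoxia (0.24 ± 0.07, adjusted p = 0.0255), with adjusted p-values of 0.0528 to 0.0680 without R26 normoxia 1, R26 normoxia 3 or HIF1a-ko hypoxia 3. The same holds for Txndc11 (0.21 ± 0.07, adjusted p = 0.0313), with 0.0527 to 0.110 without R26 normoxia 1 or 2 or HIF1a-ko hypoxia 1 or 2. Pdia5 was called higher in R26 hypoxia too without R26 hypoxia 2 (adjusted p = 0.0167) and with the replicate block (0.0241), as was Sel1l with the block (0.0454). Edem1 was called higher there with the block (adjusted p = 0.00270), with the depth term (0.00729) and in the shallower libraries alone (0.0178). Each of these fits moved it to the class of both guides. Xbp1 was the only gene raised in control cells and not with the Hif1a guide, against 7.21% of all genes, and Dnajb9 joined it with the replicate block, the depth term, the DESeq2 size factors, the DESeq2 Wald test and without HIF1a-ko hypoxia 1. The other 11 fell in none of these classes. Of these, Sil1, Txndc5, Ppib and Derl2 were higher against R26 normoxia alone, with adjusted p-values of 0.0214, 0.0459, 0.0349 and 0.00289. Of these calls that of Derl2 alone held without each library in turn. Without R26 normoxia 1 the adjusted p was 0.0534 for Sil1, 0.152 for Txndc5 and 0.0787 for Ppib, and each was also lost without some other libraries.

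Stretches of promoter are shown for Hspa5, Hsp90b1, Herpud1 and the ERO1 genes because their responses differ. All but that of Ero1l hold an element known for this pathway, and that of Ero1l holds cores of the hypoxia response element alone. Each is the 250 bases before the RefSeq start site in GRCm38.p6, written 5′ to 3′ on the gene's strand. In Hspa5 (chr2:34771840-34772089, plus strand), Hsp90b1 (chr10:86705445-86705694, minus strand) and Herpud1 (chr8:94386179-94386428, plus strand) the capitals mark the endoplasmic reticulum stress element (ERSE) or its other form, ERSE-II. In Ero1l (chr14:45318573-45318822, minus strand) and Ero1lb (chr13:12565633-12565882, plus strand) they mark ERSE and the core of the hypoxia response element. Cores of that element in Hspa5, Hsp90b1 and Herpud1 are not marked.
Hspa5: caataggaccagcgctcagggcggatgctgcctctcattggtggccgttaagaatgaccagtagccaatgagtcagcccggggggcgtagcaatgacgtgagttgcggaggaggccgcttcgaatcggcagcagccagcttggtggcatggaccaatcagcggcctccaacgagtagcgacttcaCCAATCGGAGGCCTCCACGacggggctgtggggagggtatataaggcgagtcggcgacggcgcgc
Hsp90b1: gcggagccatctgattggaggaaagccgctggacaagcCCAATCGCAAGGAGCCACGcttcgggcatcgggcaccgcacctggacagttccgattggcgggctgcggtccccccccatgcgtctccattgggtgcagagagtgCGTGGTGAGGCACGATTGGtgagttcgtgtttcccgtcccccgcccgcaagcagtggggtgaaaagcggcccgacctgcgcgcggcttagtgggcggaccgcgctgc
Herpud1: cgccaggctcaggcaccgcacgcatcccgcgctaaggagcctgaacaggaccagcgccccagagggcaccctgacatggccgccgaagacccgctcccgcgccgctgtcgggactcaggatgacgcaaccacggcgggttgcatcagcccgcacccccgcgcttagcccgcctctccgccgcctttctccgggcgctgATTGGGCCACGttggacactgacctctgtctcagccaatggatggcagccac
Ero1l: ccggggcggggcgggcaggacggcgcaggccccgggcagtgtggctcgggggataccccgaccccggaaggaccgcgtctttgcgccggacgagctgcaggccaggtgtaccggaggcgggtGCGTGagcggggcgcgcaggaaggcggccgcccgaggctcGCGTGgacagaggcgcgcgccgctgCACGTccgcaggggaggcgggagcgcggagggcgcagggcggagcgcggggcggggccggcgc
Ero1lb: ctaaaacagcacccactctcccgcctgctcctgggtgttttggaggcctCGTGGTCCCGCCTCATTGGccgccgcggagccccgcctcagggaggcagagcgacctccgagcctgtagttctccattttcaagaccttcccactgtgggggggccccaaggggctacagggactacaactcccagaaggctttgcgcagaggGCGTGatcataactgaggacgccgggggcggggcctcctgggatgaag

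The search took exact matches on both strands in windows from 250 bases before to 50 after a start, which RefSeq gave for 29 of the 35 genes. ERSE, searched as CCAAT and CCACG with any 9 bases between them, is bound by ATF6 and XBP1 with NF-Y. It was found in 10 of the 29 genes (34.5%), against 37 of 27025 genes (0.137%) over all windows. The genes were chosen as known members of the pathway this element serves, so the excess is not independent of that choice. The 10 were Hspa5, Hsp90b1, Dnajc3, Calr, Canx, Pdia6, Ero1lb, Creld2, Syvn1 and Derl3, and Hsp90b1 held 2 matches, on opposite strands. In Hspa5 the match began 65 bases before the start. ERSE-II, searched as ATTGG and CCACG with any base between them, was found in Herpud1 and Dnajb11, against 0.0444% of all genes, and the element TGACGTGG bound by XBP1 and ATF6 in Txndc11 and Txndc5, against 0.714%.

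The hypoxia response element core, ACGTG or GCGTG, was found in 23 of the 29 genes (79.3%), against 46.7% of all genes. It is short, lies inside TGACGTGG and can overlap the end of ERSE, as it does in Hsp90b1. Ero1l held 3 such cores and no ERSE, ERSE-II or TGACGTGG, while Ero1lb held 1 core and 1 ERSE on the opposite strand. Of the 10 genes with ERSE 5 rose and none fell in HIF1a-ko hypoxia against R26 hypoxia, and of the 19 without ERSE 10 rose and 2 fell. The median log2 fold change was 0.28 with ERSE and 0.27 without it. In R26 hypoxia against R26 normoxia 4 of the 10 rose and 1 fell, and of the 19 without it 3 rose and none fell, with medians of 0.12 and 0.07. The 19 without ERSE include Herpud1 and Dnajb11, which held ERSE-II, and Txndc11 and Txndc5, which held TGACGTGG. Hyou1, Hspa13, Sil1, Manf, Derl1 and Atf6 had no window and are in neither set. Whether genes with and without ERSE differ was not tested. Hspa5, at 0.95, and Syvn1, at -0.24, both held ERSE.

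**Figure D4:**
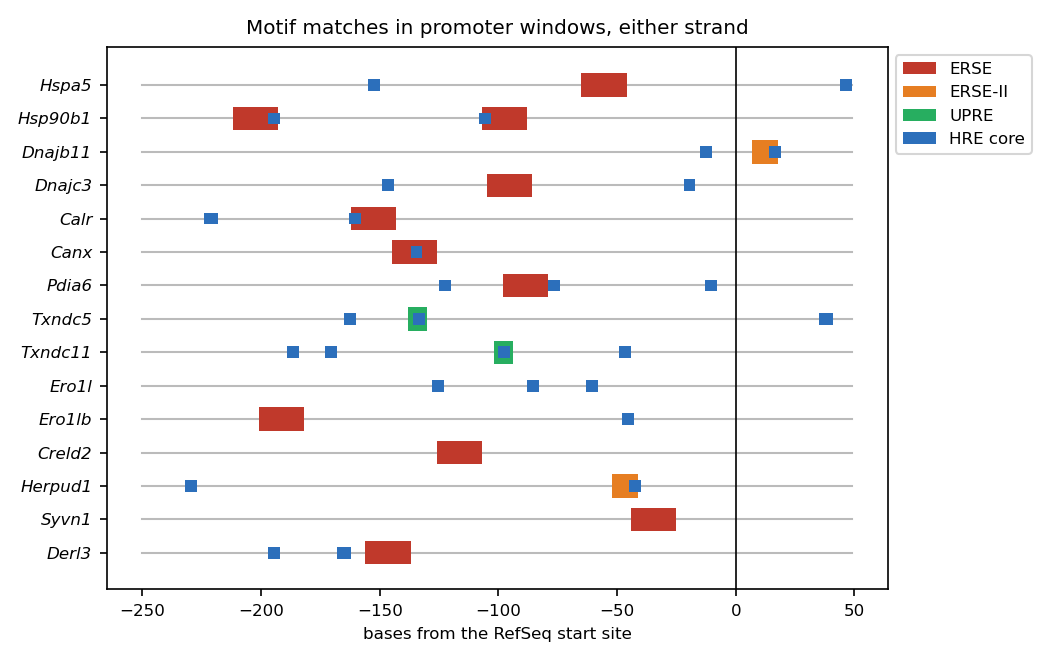
Positions of motif matches, in bases from the RefSeq start site (0), in the window of each gene that holds ERSE, ERSE-II or TGACGTGG (labelled UPRE), and in Ero1l for comparison; narrow blue boxes are hypoxia response element cores. The ERSE of Hspa5 lies 65 to 47 bases before the start, and Ero1l holds blue boxes alone.

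Genes around the 35 were counted from lists of the same pathways, to show how far the pattern reached. These lists too were chosen with earlier results of these data known. Of all genes tested, 22% rose and 23.8% fell in HIF1a-ko hypoxia against R26 hypoxia. Against R26 normoxia the shares were 19.5% and 21.9% in HIF1a-ko hypoxia, and 12.8% and 12.4% in R26 hypoxia. The list of the arm downstream of PERK, where phosphorylation of eIF2 alpha favours translation of ATF4, changed most with the Hif1a guide. In HIF1a-ko hypoxia against R26 hypoxia 9 of its 10 genes rose and none fell, with a median log2 fold change of 1.10. Atf4 stood at 374, 386 and 419.9 CPM in HIF1a-ko hypoxia, against 179, 158 and 155 CPM in R26 hypoxia and 191, 186 and 168 CPM in R26 normoxia. Trib3, a pseudokinase induced by ATF4, rose by 2.80 and Chac1, which degrades glutathione, by 2.77, while the smallest called changes were those of Eif2s1 (0.59) and Ppp1r15b (0.65). Ddit3, which encodes CHOP, was at 89.2, 88.0 and 80.9 CPM in HIF1a-ko hypoxia, against 44.8, 44.1 and 41.6 CPM in R26 hypoxia. In R26 hypoxia against normoxia 1 of the 10 rose (Atf5, 0.20) and 3 fell, among them Eif2s1 (-0.33) and Sesn2 (-0.26). Against R26 normoxia 8 of the 10 rose in HIF1a-ko hypoxia and none fell. Eif2ak3, the gene of PERK itself, did not rise in any of the 3 comparisons. Activity of PERK was not measured, so the changes in this list cannot be assigned to it.

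The list of ATF6 and CREB3 processing, which holds relatives of ATF6, their proteases and other regulators, moved in both directions. Of 9 tested, 2 rose and 4 fell in HIF1a-ko hypoxia against R26 hypoxia, with Atf6b at 0.57 and the site-2 protease Mbtps2 at 0.27 upward, and Creb3l2 at -0.56 and Crebrf at -0.48 downward. In R26 hypoxia against normoxia none rose and 3 fell, led by Wfs1 (-0.28) and Creb3 (-0.24). In HIF1a-ko hypoxia against R26 normoxia 1 rose and 6 fell.

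Genes of entry into the compartment and of sugar transfer rose in part with the Hif1a guide. Of 17 translocation genes 9 rose and 1 fell with the Hif1a guide in hypoxia, with the signal peptidase subunit Sec11c at 0.68 and the translocon-associated Ssr2 at 0.59, and Tram1 at -0.20. Of 16 genes of N-glycosylation and glycoprotein control 8 rose and 2 fell, with the oligosaccharyltransferase subunits Rpn2 at 0.73 and Rpn1 at 0.60 upward, and Uggt2 at -0.34 and Mcfd2 at -0.23 downward. In R26 hypoxia against normoxia none of the translocation genes rose and 3 fell, and of the glycosylation genes 1 rose, the glucosidase Mogs at 0.39. In HIF1a-ko hypoxia against R26 normoxia 6 of the 17 translocation genes rose and none fell. Of the 16 glycosylation genes 10 rose and 2 fell in that comparison.

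The remaining lists were mixed. Of 16 other disulfide genes 6 rose and 3 fell with the guide in hypoxia, with Tmx2 at 0.64, Dnajc10 at 0.56 and Selenom at -0.63, while low oxygen in R26 cells raised 5, led by Tmx4 at 0.49 and the peroxidase Gpx8 at 0.38. Of 19 other degradation genes 5 rose and none fell with the guide, led by the ubiquitin-conjugating enzyme Ube2g2 at 0.65 and Edem3 at 0.38, and in R26 hypoxia Vcp (-0.41) and Selenos (-0.32) fell. Of 18 other luminal folding genes 7 rose and 5 fell with the guide, with Cnpy3 at 0.76 and the calcium-binding Rcn3 at -1.06. Cytosolic and mitochondrial heat shock genes, taken for contrast, gave 5 higher and 5 lower of 14, with the mitochondrial chaperonins Hspe1 at 1.31 and Hspd1 at 1.20, and Hspa1b at -1.31 and Hspb1 at -1.02. Against R26 normoxia, 10 other disulfide genes rose and 2 fell in HIF1a-ko hypoxia, and 5 other degradation genes rose and 4 fell. Of the other luminal folding genes 4 rose and 6 fell in that comparison, and of the heat shock genes 6 rose and 4 fell.

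**Figure D5:**
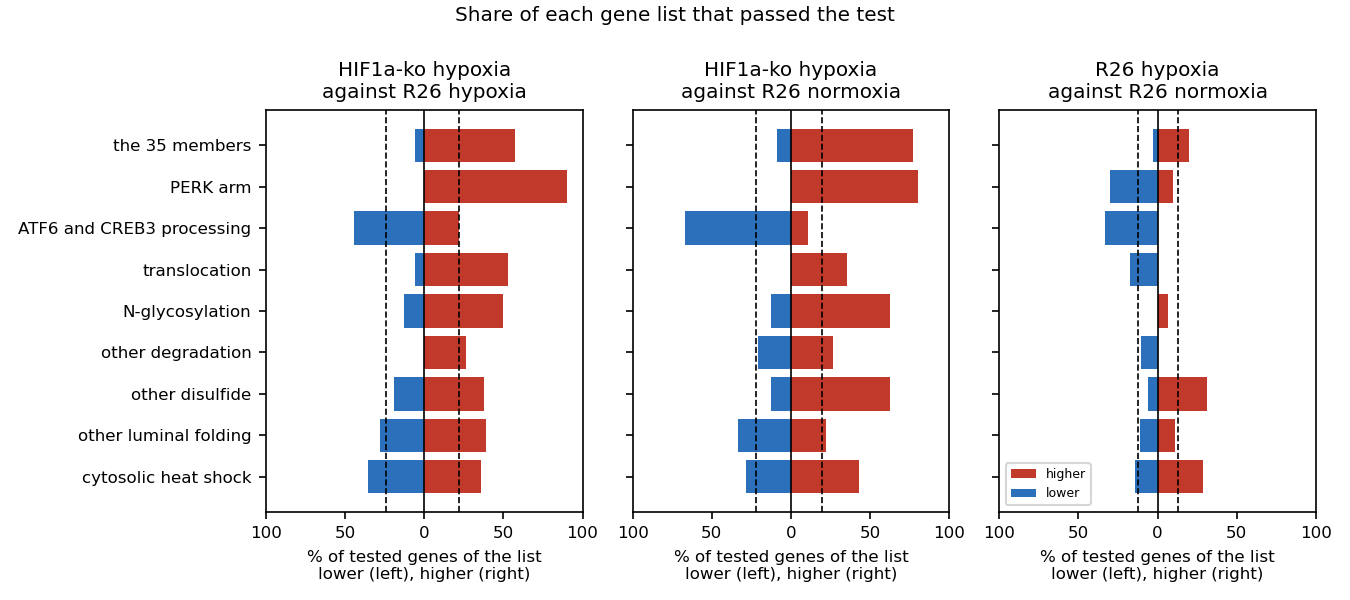
Share of each gene list that passed an adjusted p of 0.05 upward (red, right) and downward (blue, left) in 3 comparisons, as a percent of the genes tested; dashed lines give the share of all genes tested. In HIF1a-ko hypoxia against R26 hypoxia every list but ATF6 and CREB3 processing (2 of 9 higher), which ends at it, extends past the dashed line at 22%, the PERK arm farthest (9 of 10 higher). In the R26 comparison the PERK arm (3 of 10 lower), ATF6 and CREB3 processing (3 of 9 lower), other disulfide genes (5 of 16 higher) and heat shock genes (4 of 14 higher) are among those past their lines.

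Plasma cells, whose endoplasmic reticulum is large, were followed through 8 markers, of which 5 passed the filter. Their summed level was 184 to 258 CPM in HIF1a-ko hypoxia, 95.5 to 164 CPM in R26 hypoxia and 125 to 166 CPM in R26 normoxia, most of it from Sdc1. Igha, the immunoglobulin alpha chain, was at 0 in the deeper library of every group and at 42.8 and 46.9 CPM in the other HIF1a-ko libraries, 19.1 and 38.9 CPM in the other R26 hypoxia libraries and 25.9 and 11.5 CPM in the other R26 normoxia libraries. Between the deeper libraries of HIF1a-ko hypoxia and R26 hypoxia, 1 library against 1, Igha was at 0. There the log2 ratios of Hspa5, Hsp90b1 and Pdia5 were 0.87, 0.28 and 0.12, below the 0.95, 0.43 and 0.33 of the main fit. That of Sdf2l1 was 0.84, above its 0.70. The part of these markers in the other results was not tested. The deeper library lay above the others in every group for 7 genes, Ero1l and Herpud1 among them, and below them for 6, Pdia6 and Serpinh1 among them. Summed marker levels of other cell types also split by depth. The 4 fat cell markers summed to 0.265 to 0.563 CPM in the deeper libraries and 47.5 to 119 CPM in the others. For 10 epithelial or duct markers the sums were 14.2 to 46.5 CPM in the deeper libraries and 87.3 to 127 CPM in the others, and for 7 other leukocyte markers 9.58 to 18.8 CPM and 36.5 to 59.4 CPM. Depth and these markers cannot be told apart here.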

How the data were processed

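Poly-A RNA of 9 libraries was prepared with the NEBNext Ultra kit, per the labels' protocols. The authors deposited whole-number read counts per Ensembl gene, without normalization. The genome build GRCm38 and the tools STAR, featureCounts, DESeq2, Trimmomatic and bcl2fastq 2.17 are named per the submitters' processing notes. For the settings, the annotation release and strandedness, the value is not given in the sources used here, so reads of overlapping or near-identical genes may be misassigned. Columns were matched to samples by name, and 0 sample columns were left unused. Symbols came from GENCODE M21.

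The main test was that of edgeR 4.0.16 under R 4.3.3 (TMM, filterByExpr with a minimum count of 10, glmQLFit and glmQLFTest, two-sided, all 9 libraries in 1 fit with group as the only term). Benjamini-Hochberg adjustment covered 18211 genes, and a gene was called at an adjusted p under 0.05. The procedure was tested on simulated data. Alternatives used DESeq2 1.42.0, other filters, size factors, a term for the 3 deeper libraries or for the replicate number, and subsets of libraries. Replicate numbers in the labels say nothing of shared cultures. Deviations of same-numbered R26 hypoxia and R26 normoxia libraries correlated at 0.55, 0.54 and 0.86 across genes, so the fit with the block is given beside this comparison, whose main fit stays without it. Library 1 of R26 hypoxia with 2 of R26 normoxia gave 0.56, library 2 with 1 gave 0.39, and number 3 is the deeper library of both. With HIF1a-ko hypoxia some same-number correlations were negative, down to -0.62. Between replicates, chi-square per degree of freedom was 6.18 to 63.0, so no library was a duplicate.

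The 35 genes and all lists were chosen with earlier results of these data known. The text names all 35 and, of each other list, up to 2 called genes at either end per comparison, if their average log2 CPM was 3 or more. Atf4 and Ddit3 were named after their values were seen. Promoter windows came from RefSeq. Protein sequences were not analysed here.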

Additional observations from a re-analysis of the deposited data

How the results depend on the processing

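The counts of called genes in HIF1a-ko hypoxia against R26 hypoxia (22 of the 35, 8334 overall) and against R26 normoxia (30 and 7548) stayed within 1.5 times under all 16 alternatives. In R26 hypoxia against R26 normoxia, 8 of the 35 and 4591 genes overall were called. The replicate block gave 16 and 7259 (3843 higher, 3416 lower), and the depth term 13 and 6959 (3405 higher, 3554 lower). Number 3 is the deeper library of both R26 groups, so the block and depth cannot be told apart there. In the other comparisons the replicate numbers did not pair the libraries. The block also moved the class raised with both guides to 10, and the class raised only with the control guide stood at 2 under the block, the depth term, DESeq2 size factors and the DESeq2 Wald test. Without each replicate in turn, the genes called of the 35 ran from 21 to 23 in HIF1a-ko hypoxia against R26 hypoxia (7195 to 8400 overall), 24 to 33 against R26 normoxia (6309 to 7995), and 6 to 9 between the R26 groups (3287 to 4373). The classes ran from 4 to 7 (both guides), 15 to 18 (Hif1a guide only) and 1 to 2 (control guide only). No called gene of the 35 changed sign. The cause of these shifts was not tested. With 3 libraries a group, changes near 0.2 on the log2 scale moved in and out of the calls, and Derl3 was too low to judge.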
